A study of Mus musculus with 6 samples.

Results

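The choroid plexus is the secretory epithelium of the brain ventricles, and 10 of its genes were followed here in whole mouse brain: Ttr, Folr1, Clic6, Kl, Otx2, Aqp1, Enpp2, Sostdc1, Slc4a5 and Prlr. They were taken by gene name from the 55359 annotated genes of the deposited tables, and all 10 were found. RNA sequencing was done at E18.5, late in gestation, on 3 wild-type (WT) libraries and 3 libraries from PME-1 S156A knock-in embryos. Ppme1 is the gene of PME-1, an enzyme that demethylates the carboxyl end of the catalytic subunit of PP2A, a phosphatase of serine and threonine. In the S156A form a serine is replaced by alanine. Each library was made from 3 whole brains pooled in 1 tube, so p-values rest on the spread between pools, not between embryos. The labels do not give the strain, the zygosity of the knock-in, the sex of the embryos or whether groups shared litters.

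The choroid plexus grows from the roof of the neural tube into the ventricles as a single sheet of epithelial cells over leaky capillaries and stroma. Its cells secrete cerebrospinal fluid by moving ions, bicarbonate and water, and they release carrier proteins, growth factors and signalling antagonists into the fluid. The homeobox factor Otx2 is needed for the tissue to form and to keep its identity, and Ttr is its most abundant secreted product. Several of the 10 genes also have other sources: Aqp1 is expressed in red blood cells and endothelium, Enpp2 in oligodendrocytes, and Ttr in the liver.

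Between 18191 and 19270 annotated genes reached 1 TPM (a transcript's length-adjusted share of the library) in a library, and the estimated depth was between 3.15 and 4.14 aligned gigabases. WT replicate 3 and S156A replicate 1 stood apart by tissue from outside the brain. The summed level of 8 skeletal muscle markers was 6523 and 6993 TPM there, against 17.9 and 832 TPM in the other WT and 56.6 and 48.5 TPM in the other S156A libraries. Results below are therefore also given without these 2 libraries, and WT replicate 2, at 832 TPM, stays in that comparison. Ppme1 itself had 92.4, 95.0 and 74.0 TPM in the WT libraries, against 72.4, 89.0 and 82.7 TPM with S156A, which does not check a point mutation. The level of a transcript in bulk tissue does not tell fewer cells of a type from less RNA per cell.

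The mean level of each tested choroid plexus gene was higher in S156A brains, but none passed the test over all genes. Of the 10, 8 had a mean of at least 1 TPM and were tested with limma on log2(TPM + 1), with Benjamini-Hochberg adjustment over 18893 genes. Of these 8 genes 0 were called at an adjusted p under 0.05, against 0.159% of all tested genes, or 0.0847% that were called and higher in S156A. All 8 had a log2 difference (S156A minus WT) above 0, as 61.7% of all tested genes had. The count at an unadjusted p under 0.05 was 5, all higher in S156A, where 8.41% of all tested genes were. For these same 5 (Ttr, Clic6, Folr1, Enpp2 and Slc4a5) the groups did not overlap, where 13.7% of all tested genes lay apart with the higher values in S156A. The median log2 difference of the 8 was 0.82, beside 0.09 for all tested genes. Without the 2 libraries richest in muscle transcripts it was 0.96, beside 0.10, with 7 of the 8 at an unadjusted p under 0.05 and higher in S156A (10.5% of all tested genes). The groups of 2 then lay apart, higher in S156A, for 8 of the 8 (32.2% of all tested genes), and still 0 were called. Because the genes were chosen with earlier results of these data known, the shares are a reference and not a test.

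**Figure D1:**
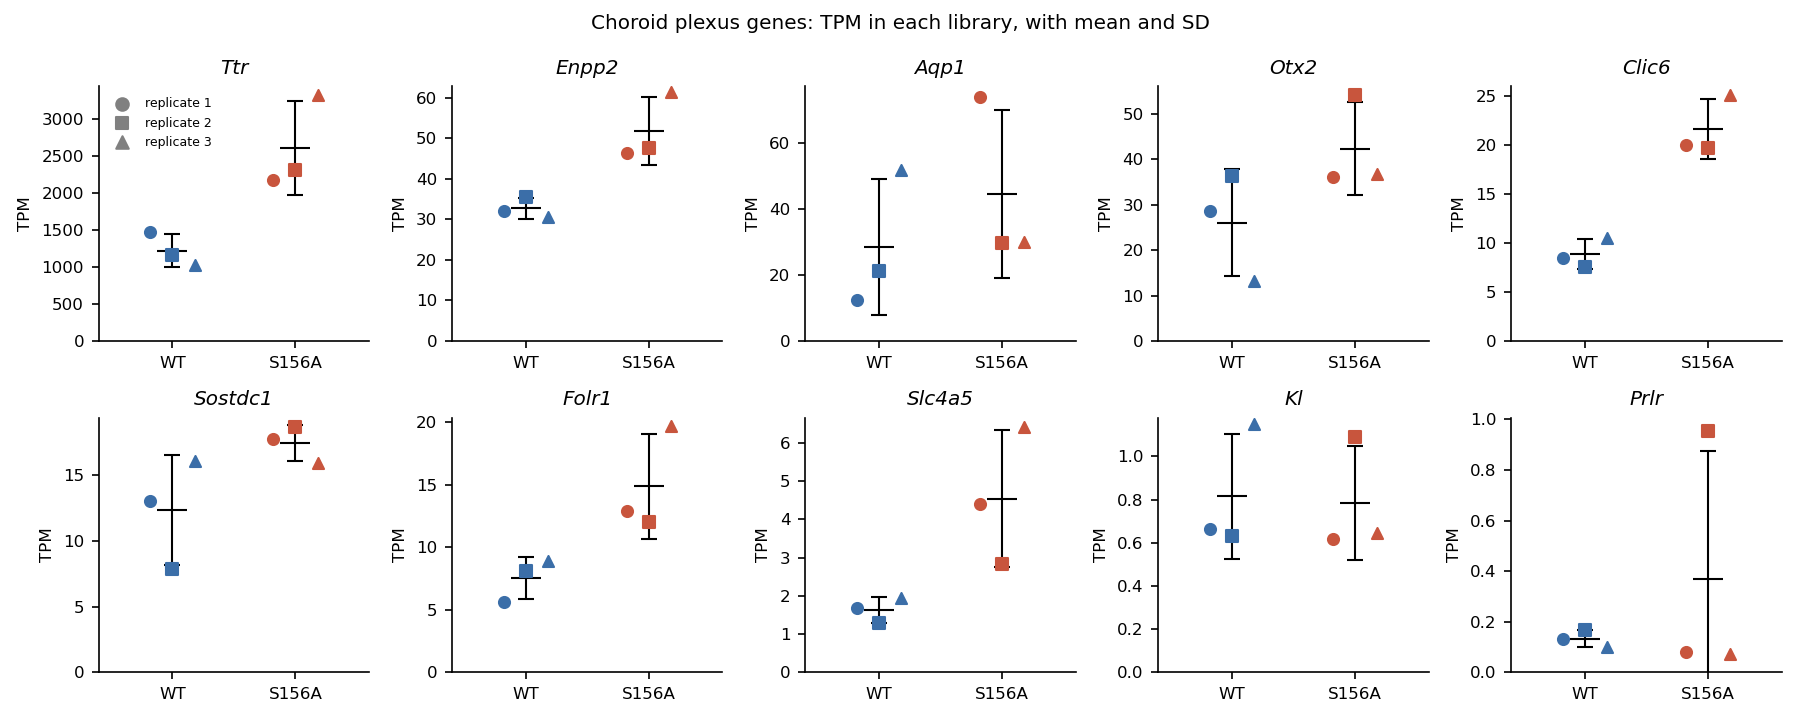
TPM of the 10 choroid plexus genes (vertical axes, linear from 0) in the 3 WT and 3 S156A libraries, with the mean and SD of each group; marker shapes give the replicate number. The SD bar of Prlr in S156A is cut at 0. The groups lie apart for Ttr, Enpp2, Clic6, Folr1 and Slc4a5 and overlap for the other 5 genes.

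In WT the level per transcript length was highest for Ttr, at 1223 TPM on average, and then for Enpp2 (32.7 TPM), Aqp1 (28.5 TPM) and Otx2 (26.0 TPM). Ttr stood far from all others, while Enpp2, Aqp1 and Otx2 overlapped one another between libraries. Sostdc1 (12.4 TPM), Clic6 (8.86 TPM) and Folr1 (7.55 TPM) came next and also overlapped, and the highest Sostdc1 library lay within the ranges of Aqp1 and Otx2. Slc4a5 (1.64 TPM), Kl (0.81 TPM) and Prlr (0.13 TPM) followed, each apart from its neighbours in WT. In S156A the order was the same except that Clic6 (21.6 TPM) lay above Sostdc1 (17.5 TPM), and in those 3 libraries all Clic6 values exceeded all Sostdc1 values.

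Ttr (ENSMUSG00000061808.5, chromosome 18, 20798337 to 20807378 in the files' coordinates) encodes transthyretin, the carrier of thyroxine and of retinol-binding protein. It had 1471, 1169 and 1028 TPM in WT replicates 1 to 3, against 2177, 2321 and 3335 TPM in the S156A replicates in the same order. All S156A libraries were above all WT libraries, and S156A replicate 3 was the highest. It ranked between place 58 and place 95 among the annotated genes of the WT libraries and between place 26 and place 38 in S156A. The log2 difference was 1.08 (SE 0.22; limma adjusted p = 0.12), and it was also 1.08 without the 2 libraries richest in muscle transcripts. Of the hepatocyte genes, Alb, Afp, Fgb and Ahsg were below 1 TPM in each library and Serpina1a was listed at 0 in all 6 (named after their values were seen). Among the 8 hepatocyte markers Trf, which oligodendrocytes and choroid plexus also express, was highest (11.4 to 21.1 TPM in WT, 26.1 to 28.3 TPM in S156A), followed by Apoa2 (2.12 to 3.42 and 0.44 to 1.46 TPM) and Apoa1. The part of liver RNA in the Ttr difference was not tested.

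Enpp2 (ENSMUSG00000022425.17, chromosome 15, 54702297 to 54816288) encodes autotaxin, the secreted enzyme that makes lysophosphatidic acid. It had 32.1, 35.4 and 30.6 TPM in the WT libraries, against 46.5, 47.5 and 61.4 TPM with S156A. The groups were apart, and the WT libraries were more alike than for any other of the 10 genes (coefficient of variation 7.58%). The log2 difference was 0.64 (SE 0.14; limma adjusted p = 0.14), and 0.66 without the 2 libraries richest in muscle transcripts. Of 11 markers of the oligodendrocyte lineage, another source of Enpp2, 8 had a log2 difference above 0 and 1 was called. Among all tested genes these shares were 61.7% and 0.159%. The summed level of the 11 markers was 268 to 304 TPM in WT and 339 to 449 TPM in S156A. Gpr17, the called gene and a receptor of differentiating precursors, rose from 13.9, 13.3 and 10.6 TPM in the WT libraries to 29.5, 34.8 and 31.1 TPM (log2 difference 1.28, SE 0.15; limma adjusted p = 0.046). That call held without WT replicate 3 (adjusted p = 0.045) but not without any other single library (0.17 and 0.25 without WT replicates 1 and 2, and 0.10, 0.18 and 0.19 without S156A replicates 1, 2 and 3). The part of these cells in the Enpp2 difference was not tested.

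Sostdc1 (ENSMUSG00000036169.7, chromosome 12, 36364138 to 36368451) encodes a secreted antagonist of BMP and Wnt signals. It had 13.1, 7.90 and 16.1 TPM in the WT libraries, against 17.8, 18.7 and 16.0 TPM with S156A. The groups overlapped, with WT replicate 3 just above S156A replicate 3. The log2 difference was 0.52 (SE 0.25; limma adjusted p = 0.41), and 0.25 without WT replicate 2, the lowest library. Without the 2 libraries richest in muscle transcripts it was 0.71, with the groups apart.

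Clic6 (ENSMUSG00000022949.10, chromosome 16, 92282624 to 92338131) belongs to the chloride intracellular channel family. It had 8.49, 7.54 and 10.6 TPM in the WT libraries, against 20.0, 19.7 and 25.1 TPM with S156A. The groups were far apart, with the lowest S156A library well above the highest WT library. The log2 difference of 1.20 (SE 0.18) had the smallest adjusted p of the 10 genes (limma adjusted p = 0.070), and it was 1.37 (adjusted p = 0.10) without the 2 libraries richest in muscle transcripts. The deposited mean read depth per base of Clic6 was 1.04, 1.00 and 1.42 in the WT libraries and 3.15, 2.28 and 4.22 with S156A. These depths, not adjusted for library size, were also apart but lay far below the TPM values, so the Clic6 level in TPM is uncertain.

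Slc4a5 (ENSMUSG00000068323.13, chromosome 6, 83196810 to 83281927) encodes the sodium bicarbonate cotransporter NBCe2 of the apical membrane of the epithelium. It had 1.67, 1.28 and 1.96 TPM in the WT libraries, against 4.39, 2.83 and 6.40 TPM with S156A. The groups were apart, but the S156A libraries spread widely (coefficient of variation 39.5%). The mean in S156A was 2.77 times that in WT, and the log2(TPM + 1) difference was 1.03 (SE 0.31; limma adjusted p = 0.23). With a pseudocount of 0.1 the difference was 1.36. The deposited mean read depth per base of Slc4a5 was 1.75, 1.39 and 2.25 in the WT libraries and 3.18, 2.76 and 5.08 with S156A. In S156A replicates 1 and 3 this depth was below the TPM value. For Ttr it was above the TPM value in those libraries (2861 and 4804 against 2177 and 3335 TPM). The size of the Slc4a5 difference in TPM is therefore uncertain. Such a mismatch was not particular to Slc4a5: for Clic6, Otx2 and Enpp2 the depth was below the TPM value in every library. Without the 2 libraries richest in muscle transcripts the Slc4a5 difference was 1.11 on the log2(TPM + 1) scale.

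Aqp1 (ENSMUSG00000004655.6, chromosome 6, 55313417 to 55325540), the water channel of the ventricular surface of the epithelium, had 12.4, 21.3 and 51.8 TPM in the WT libraries, against 74.0, 29.7 and 30.1 TPM with S156A. WT replicate 3 and S156A replicate 1 were the highest in their groups, and the groups overlapped. Its log2 difference was 0.73 (SE 0.54; limma adjusted p = 0.59), and it was 0.28 without WT replicate 1, 0.30 without S156A replicate 1 and 1.27 without WT replicate 3. Without WT replicate 3 and S156A replicate 1 together it was 0.84, with the groups apart. Markers of stroma and skin-type epithelium had the same 2 libraries on top: 9 meningeal and stromal markers summed to 2892 TPM in WT replicate 3 and 3950 TPM in S156A replicate 1, against 649 to 1924 TPM elsewhere. Erythroid genes, a further source of Aqp1, summed to 10025 to 22254 TPM in WT and to 17112 to 24281 TPM in S156A. Of 5 tested erythroid markers 5 had a log2 difference above 0, against 61.7% of all tested genes, and 0 were called, against 0.159%. Endothelial markers summed to 188 to 265 TPM in WT and to 265 to 298 TPM in S156A. The part of these tissues in the Aqp1 values was not tested.

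Folr1 (ENSMUSG00000001827.13, chromosome 7, 101507538 to 101519995) encodes folate receptor alpha, which carries folate across the epithelium into the cerebrospinal fluid. It had 5.64, 8.13 and 8.89 TPM in the WT libraries, against 12.9, 12.0 and 19.7 TPM with S156A. The groups were apart, and the log2 difference was 0.88 (SE 0.25; limma adjusted p = 0.22), and 1.08 without the 2 libraries richest in muscle transcripts. Of the other folate carriers, Slc46a1 was at 27.1 to 29.1 TPM in WT and at 22.5 to 28.6 TPM in S156A, and Slc19a1 at 21.8 to 27.1 TPM and 23.3 to 34.6 TPM (named after their values were seen). Both overlapped between groups.

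Kl and Prlr were too low to be tested. Kl (ENSMUSG00000058488.8, chromosome 5, 150876072 to 150917282) encodes klotho, a co-receptor for fibroblast growth factor 23. It had 0.66, 0.63 and 1.15 TPM in the WT libraries, against 0.62, 1.09 and 0.65 TPM with S156A, with full overlap. Prlr (ENSMUSG00000005268.21, chromosome 15, 10177324 to 10349266), the prolactin receptor, had 0.13, 0.17 and 0.10 TPM in the WT libraries, against 0.080, 0.95 and 0.072 TPM with S156A. S156A replicate 2 was the only library above 0.2 TPM, yet its deposited mean read depth over Prlr, 0.093 per base, was below that of the others (0.10 to 0.18). Without the filter on low values the log2 differences were -0.02 for Kl and 0.21 for Prlr (limma adjusted p = 1 for each). Prl, the ligand of Prlr, was at 0 to 0.20 TPM.

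Otx2 (ENSMUSG00000021848.17, chromosome 14, 48895134 to 48911276) had 28.7, 36.3 and 13.2 TPM in the WT libraries, against 36.1, 54.1 and 36.8 TPM with S156A. WT replicate 2 reached the level of S156A replicates 1 and 3, and WT replicate 3 was by far the lowest. The log2 difference was 0.77 (SE 0.36; limma adjusted p = 0.40), and it was 0.36 without WT replicate 3, 0.46 without that library and S156A replicate 1, and 1.05 without WT replicate 2. The deposited mean read depth per base of Otx2 was 13.0, 12.1 and 9.21 in the WT libraries and 14.2, 17.3 and 25.3 with S156A. These depths, not adjusted for library size, lay below the TPM values and did not overlap between groups, so the overlap in TPM is uncertain. Otx2 is also expressed in the midbrain, thalamus and cerebellum, so its level is not that of the choroid plexus alone.

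Promoter sequences for 5 of the 10 genes (Kl, Aqp1, Slc4a5, Otx2 and Prlr) were in the RefSeq table of build GRCm38.p6, with 10 start sites between them. The 250 bases before each start were searched on both strands for TAATCC, the core that Otx2 and its relatives bind, with GGATTA as its reverse complement. It was found before 1 of the 10 starts, one of the 4 of Otx2 itself, and before 6.25% of the 32851 starts in the table. Shown are that window of Otx2 (chr14:48665110-48665359, minus strand, capitals marking the motif, which begins at -211 relative to the start) and, for comparison, the window of Slc4a5 (chr6:83237125-83237374, plus strand), which has no match.
Otx2: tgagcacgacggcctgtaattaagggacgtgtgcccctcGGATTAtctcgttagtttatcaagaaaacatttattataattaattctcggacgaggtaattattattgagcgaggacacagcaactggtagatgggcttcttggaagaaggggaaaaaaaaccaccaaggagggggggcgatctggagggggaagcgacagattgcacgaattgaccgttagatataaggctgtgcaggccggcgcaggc
Slc4a5: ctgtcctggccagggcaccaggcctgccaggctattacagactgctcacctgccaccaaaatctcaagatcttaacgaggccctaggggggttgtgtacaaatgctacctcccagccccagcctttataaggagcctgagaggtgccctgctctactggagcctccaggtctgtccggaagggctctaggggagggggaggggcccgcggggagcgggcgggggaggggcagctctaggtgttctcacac
The Otx2 window has 48.4% G and C and the Slc4a5 window 62.8%, beside a median of 52.4% over all windows. A match of 6 letters is a description of the sequence and not a measured binding site.

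Beside the annotated rows, the deposited tables list 26631 to 28575 loci per library that were assembled from its reads, and for some choroid plexus genes the annotated row and the assembled locus disagreed. A single assembled locus on the same strand covered at least 50% of the gene in every library for 7 of the 10 genes. For Ttr, Aqp1 and Sostdc1 both rows were equal, and for Clic6 they differed by less than 1%. For Folr1 the annotated row held 47.5% and 48.8% of the assembled level in WT replicates 1 and 2 and 43.8% to 45.8% in S156A, but 100% in WT replicate 3. The assembled locus of Folr1 had 11.9, 16.7 and 8.89 TPM in the WT libraries, against 28.3, 27.4 and 44.0 TPM with S156A. With assembled loci in place of the annotated rows, a comparison added after the data were seen, the log2 difference of Folr1 was 1.35 in place of 0.88 (limma adjusted p = 0.11). For Otx2 the annotated row held 60.6% of the assembled level in WT replicate 3 and 79.8% to 105% elsewhere. Its assembled locus had 35.9, 34.4 and 21.7 TPM in the WT libraries, against 36.2, 56.5 and 45.5 TPM with S156A, so the groups no longer overlapped, by a narrow margin, and the log2 difference was 0.58 (limma adjusted p = 0.34). For Enpp2 the assembled locus gave 0.60 (limma adjusted p = 0.14). Folr1, Otx2 and Enpp2 overlap other genes on the opposite strand, and Clic6, Prlr and Otx2 on the same strand. The sources used here do not say whether strand was used when reads were assigned.

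**Figure D2:**
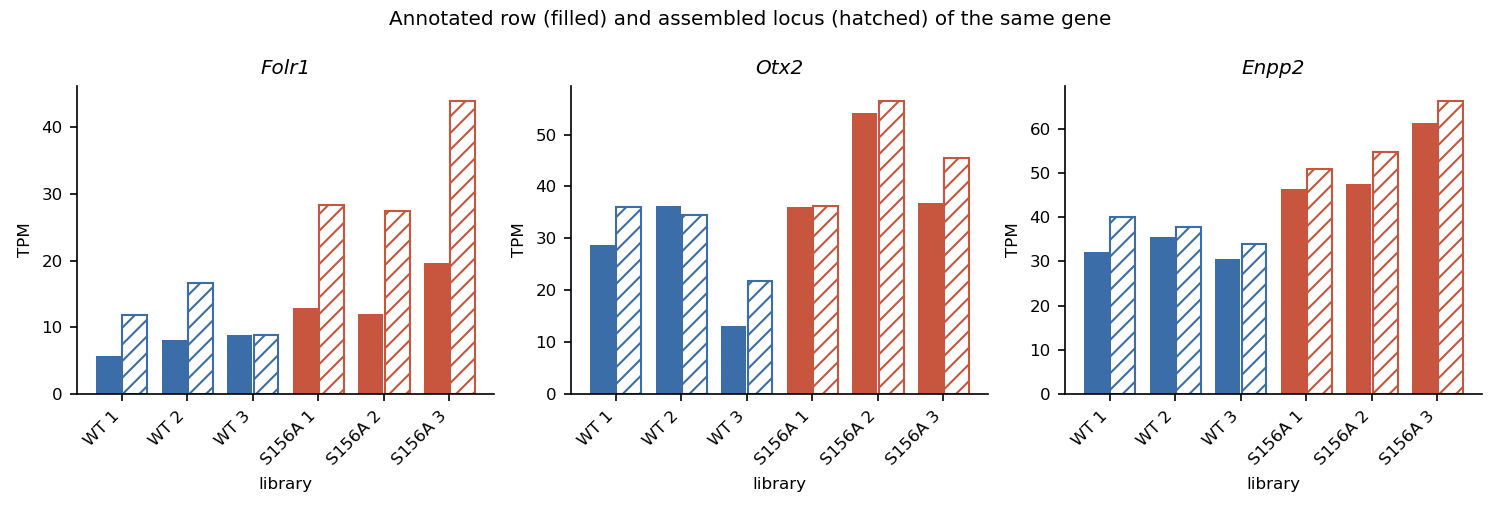
TPM (vertical axes, linear from 0) of the annotated row (filled bars) and of the assembled locus (hatched bars) of Folr1, Otx2 and Enpp2 in each of the 6 libraries, WT in blue and S156A in red. The annotated row of Folr1 is below 50% of the assembled locus in 5 libraries and equal to it in WT replicate 3.

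Setting each gene against Ttr in the same library removes differences in scaling and also any difference that a gene shares with Ttr, which was itself 2.14 times higher in S156A. The groups overlapped for 8 of the 9 ratios, those of the untested Kl and Prlr included. For 63.9% of all tested genes the ratio to Ttr did not overlap, but a gene without a difference has a lower ratio where Ttr is higher. Overlap also comes with a wide spread, so these counts cannot tell whether a gene varies with Ttr. The mean log2 ratio (S156A minus WT), from annotated rows, ran from -1.13 for Kl to 0.33 for Slc4a5, and was above 0 only for Slc4a5 and Clic6 (0.21). For Folr1 (-0.12) the annotated row held 100% of the assembled level in WT replicate 3 and 43.8% to 48.8% elsewhere. The sign of its ratio is therefore uncertain. Clic6 was at 0.58% to 1.03% of the Ttr level in WT and at 0.75% to 0.92% in S156A. Folr1 was at 0.38% to 0.86% and 0.52% to 0.59%, and Slc4a5 at 0.11% to 0.19% and 0.12% to 0.20%. These ranges overlapped, as did those of Otx2, Aqp1, Sostdc1, Kl and Prlr. Enpp2 was the 1 gene of 9 whose ratio did not overlap, at 2.18% to 3.03% of Ttr in WT and 1.84% to 2.13% in S156A. Its exact permutation test, two-sided, gave p = 0.1, the smallest that 3 against 3 libraries allow, and 0.6 after adjustment over the 9 ratios.

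The 10 genes also differed in which libraries were high within a group. Ttr was highest of the WT libraries in replicate 1 and lowest in replicate 3, while Clic6, Folr1, Slc4a5, Sostdc1, Kl and Aqp1 were highest in WT replicate 3. For Folr1 this holds for the annotated row only: its assembled locus was lowest there, at 8.89 TPM against 11.9 and 16.7 TPM. In S156A, replicate 3 was the highest library for Ttr, Enpp2, Clic6, Folr1 and Slc4a5, and replicate 2 for Otx2, Sostdc1, Kl and Prlr. Enpp2 lay closest to the mean profile of the 10 genes over the 6 libraries (root mean square distance 0.15 on the log2 scale), and Aqp1 (0.68) and Otx2 (0.52) lay farthest. Among 13679 other genes with a mean of at least 5 TPM, the 8 nearest to that mean profile were Mfrp, Rnf122, Hexa, Wnt5a, Ctsl, Aifm3, Pdpn and Lgmn. Their distances were 0.056 to 0.077 over 6 libraries, beside a median of 0.39 for all these genes. Mfrp, for example, had 5.53, 5.56 and 6.44 TPM in the WT libraries, against 9.91, 8.85 and 10.4 TPM with S156A. The mean profile is lower in each WT library than in each S156A library, so this difference follows from how the genes were chosen. The 10 choroid plexus genes themselves lay farther from it, at 0.15 to 0.68.

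**Figure D3:**
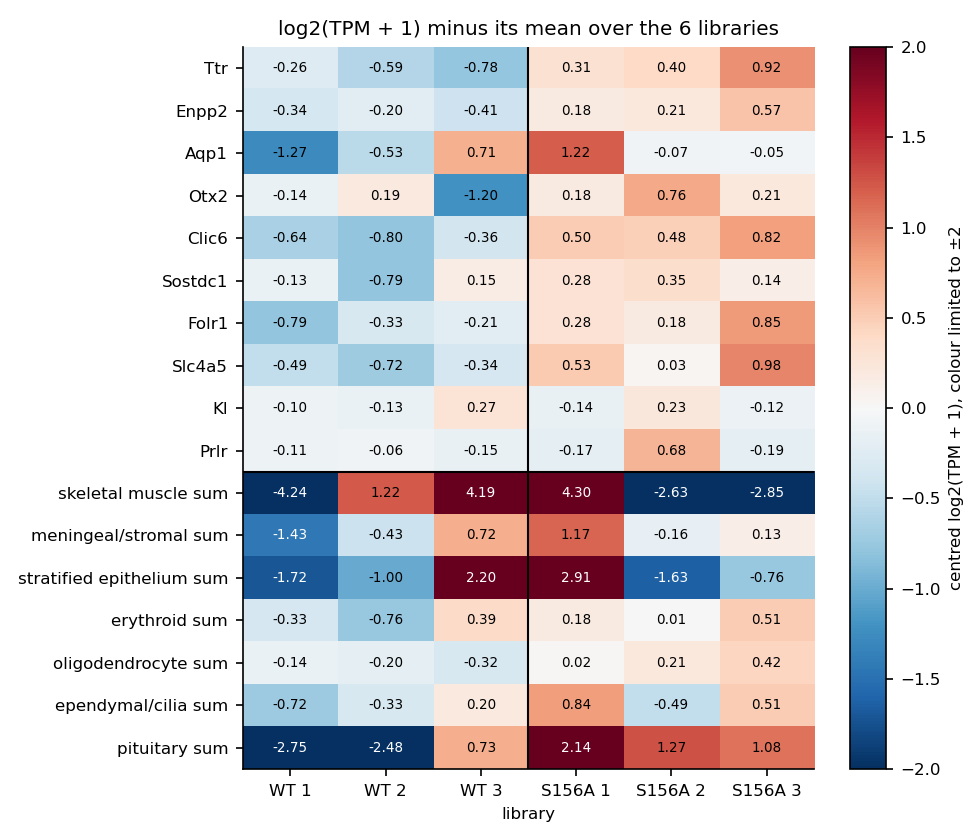
log2(TPM + 1) minus its mean over the 6 libraries (colour and printed value) for the 10 choroid plexus genes (upper block) and for the summed TPM of 7 marker lists (lower block), 1 column per library. Aqp1 is the gene whose 2 highest libraries are those with the highest muscle, stromal and epithelial sums, WT replicate 3 (0.71) and S156A replicate 1 (1.22).

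Of 56 other choroid plexus genes, in 5 groups by role, 51 were tested. Of these, 43 had a log2 difference above 0, against 61.7% of all tested genes, with exceptions among receptors, carriers and epithelial genes. Among these 51, 0 were called, 21 were higher in S156A at an unadjusted p under 0.05 and 2 were lower, beside 8.41% and 5.5% of all tested genes. In 26 the groups lay apart with higher values in S156A (13.7% of all tested genes), and in 2 with lower values (7.05%). Their median log2 difference was 0.54. It was 0.63 without the 2 libraries richest in muscle transcripts, where 25 were higher at an unadjusted p under 0.05 (10.5% of all tested genes). These lists were chosen with earlier results of these data known, so the counts beside the shares are not an independent test.

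Among channels, transporters and carbonic anhydrases 8 of 14 tested were higher at an unadjusted p under 0.05 (8.41% of all tested genes). The sulfate transporter Slc13a4 had 3.90, 6.43 and 8.49 TPM in the WT libraries, against 16.2, 17.8 and 18.3 TPM with S156A (log2 difference 1.39, SE 0.26; limma adjusted p = 0.094). The potassium channel subunit Kcne2 was at 13.0, 7.63 and 8.25 TPM and at 21.1, 23.5 and 21.5 TPM (1.15, SE 0.21; limma adjusted p = 0.094). The carbonic anhydrase Car14 (1.11) and the anion exchanger Slc4a2 (0.76) were also higher, with limma adjusted p of 0.096 and 0.18. The groups lay apart for each of these 4 genes. In contrast Slc29a4, Slc22a8 and Slco1c1, named after their values were seen and also expressed in neurons, meninges or brain endothelium, had log2 differences of -0.11, -0.04 and -0.02 with overlapping groups. The levels of the genes that were higher are likewise those of whole brain, and not of choroid plexus alone.

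Among secreted proteins 6 of 10 tested were higher at an unadjusted p under 0.05 (8.41% of all tested genes). Wnt5a (log2 difference 0.73), ceruloplasmin Cp (0.76), the growth factor antagonist Wfikkn2 (0.75) and the insulin-like growth factor binding protein Igfbp2 (0.55) had the smallest p, with limma adjusted p of 0.15 to 0.20. Igfbp2, the most abundant of the 4, had 310, 366 and 411 TPM in the WT libraries, against 530, 465 and 598 TPM with S156A. Among transcription and multiciliation factors 5 of 9 were higher at an unadjusted p under 0.05, beside the same 8.41%. Foxj1, the master factor of motile cilia, had 20.0, 23.5 and 19.0 TPM in the WT libraries, against 36.3, 39.2 and 41.2 TPM with S156A (limma adjusted p = 0.068). Ccno, which acts in centriole amplification, was at 1.06 to 1.10 TPM in WT and at 3.18 to 4.88 TPM in S156A, and Mcidas, upstream of it, at 0.49 to 0.88 TPM and 1.73 to 2.55 TPM. These 3 genes also mark ependymal cells. Lmx1a, a roof plate factor named after its values were seen, was at 4.32 to 4.61 TPM in WT and at 4.83 to 4.94 TPM in S156A, a log2 difference of 0.11.

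Of 5 tested receptor genes 0 were higher and 1 was lower at an unadjusted p under 0.05 (8.41% and 5.5% of all tested genes). Htr2c, the serotonin receptor abundant in choroid plexus and also made by neurons, had 12.9, 11.0 and 11.4 TPM in the WT libraries, against 7.37, 6.40 and 10.3 TPM with S156A (log2 difference -0.52, SE 0.21; limma adjusted p = 0.34). Of 13 epithelial genes 2 were higher at an unadjusted p under 0.05, Cab39l (1.07) and Calml4 (0.61), and 1 was lower, Vat1l (-0.53), which neurons also express. The keratin genes Krt8 and Krt18, named after their values were seen, were highest in the same 2 libraries: Krt8 was at 32.6 TPM in WT replicate 3, 29.8 TPM in S156A replicate 1 and 2.06 to 5.39 TPM elsewhere.

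**Figure D4:**
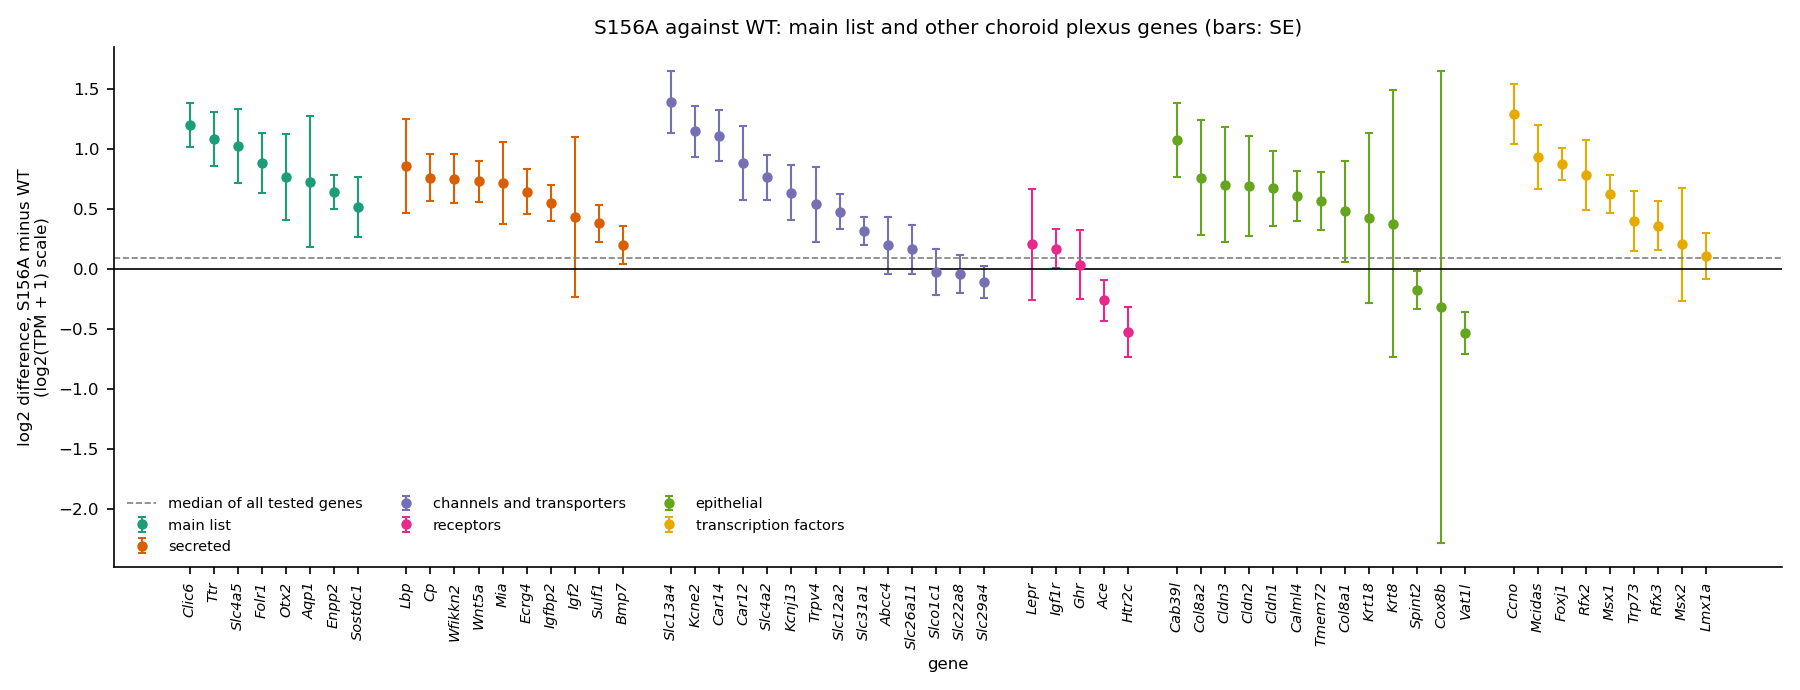
log2 difference (S156A minus WT, vertical axis, log2(TPM + 1) scale) of the 8 tested genes of the main list and 51 other tested choroid plexus genes on the horizontal axis, grouped by role, with SE bars. The 8 genes lie between 0.52 and 1.20, above the dashed median of all tested genes at 0.09, while Htr2c (-0.52) and Vat1l (-0.53) lie below 0.

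Ligands, receptors and partners of the 10 proteins had a median log2 difference of 0.28. Of 20 tested, 0 were called, and 2 were higher and 0 lower at an unadjusted p under 0.05, beside 8.41% and 5.5% of all tested genes. Rbp4, the retinol-binding protein that travels with transthyretin, had 3.90, 4.69 and 7.87 TPM in the WT libraries, against 10.1, 8.65 and 15.7 TPM with S156A (log2 difference 0.95, SE 0.31; limma adjusted p = 0.26). Aqp4, the water channel of astrocytes and ependyma, was at 27.1, 21.3 and 29.2 TPM and at 33.2, 51.7 and 44.4 TPM (0.70, SE 0.20; limma adjusted p = 0.21). The lysophosphatidic acid receptor Lpar6 (0.52) and the Sostdc1-binding co-receptor Lrp6 (0.51) had limma adjusted p of 0.40.

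Markers of neighbouring tissues varied beside these genes. Of 8 ependymal and cilia markers tested 7 had a log2 difference above 0 and 1 was higher at an unadjusted p under 0.05. Among all tested genes these shares were 61.7% and 8.41%. The sums of the ependymal and cilia markers overlapped between groups (34.6 to 66.4 TPM in WT, 40.8 to 104 TPM in S156A). Of 7 roof plate and cortical hem markers 0 passed an unadjusted p of 0.05 (13.9% of all tested genes did), with a median log2 difference of 0.38. Of 9 meningeal and stromal markers 9 had a log2 difference above 0 (61.7% of all tested genes). The smallest p was that of Ptgds, a prostaglandin synthase of meninges and choroid plexus. Ptgds had 465, 768 and 769 TPM in WT and 1335, 1148 and 1502 TPM in S156A (limma adjusted p = 0.14). Anterior pituitary markers summed to 11.3, 13.8 and 137 TPM in WT and to 363, 199 and 174 TPM in S156A, and these sums, of a gland that lies beneath the brain, did not overlap between groups. The 10 markers of pigment epithelium, retina and lens summed to 44.8 to 51.5 TPM in WT and to 62.9 to 92.4 TPM in S156A, without overlap. The highest of them in each library was Rlbp1, a retinoid-binding protein gene of retina and glia, at 28.1 to 34.4 TPM in WT and 38.9 to 53.4 TPM in S156A, while the pigment epithelium gene Rpe65, named after its values were seen, was at 0.11 TPM in WT replicate 1 and listed at 0 elsewhere. The part of how the brains were dissected in these differences was not tested.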

How the data were processed

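Total RNA from whole E18.5 brains, 3 brains per tube, was sequenced in 6 directional libraries, per the labels' protocols. Each library has 1 table of gene abundances in the layout of StringTie, per the file headers. Tools listed in the submitters' processing notes are HISAT2 2.2.1, Trim Galore 0.6.6 and StringTie 2.1.5. The sources used here name no annotation release, strand setting or filter. The notes name the human build hg38, but the rows are mouse genes, and only 3.18% of 38131 genes matched by symbol start within 1000 bases of their GRCm38 position. Coordinates are therefore the files' own, with no build assigned. The deposited TPM values were handled as a score, because assembled loci (summing to 100% of a library) and annotated genes (93.1% to 95.8%) share 1 column. The deposited FPKM values served as an alternative. The deposited coverage gave depth as its commonest ratio to FPKM. The tables hold no read counts, so no counting intervals can be given.

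Annotated rows were used, and 7 identifiers on more than 1 row were summed. The 18893 genes with a mean of at least 1 TPM were tested on log2(TPM + 1) with limma 3.58.1 in R 4.3.3 (eBayes with trend, two-sided, no covariate), called at a Benjamini-Hochberg adjusted p under 0.05. Only the limma fit was tested on simulated data, drawn independently for each gene and library. Tissue from outside the brain in single libraries was not simulated. Genes named were the 10 and, from each other list, up to 4 with the smallest p or, for tissues outside the brain, up to 3 with the highest level. Genes near the mean profile were taken by distance, and others are said to have been named after their values were seen. The genes and lists were chosen with earlier results of these data known. Of the listed genes Ahsp was not found, and Lhb has 2 identifiers.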

Additional observations from a re-analysis of the deposited data

How the results depend on the processing

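The 8 tested choroid plexus genes kept a positive log2 difference in each of the alternatives that tested them, and 0 were called in all but 1: limma array weights called 2, Clic6 (adjusted p = 0.021) and Ttr (adjusted p = 0.044). Over all alternatives the log2 difference ran from 0.94 to 1.37 for Clic6, 0.89 to 1.22 for Ttr, 0.65 to 1.35 for Folr1, 0.51 to 0.71 for Enpp2, 0.51 to 1.36 for Slc4a5, 0.36 to 1.05 for Otx2, 0.28 to 1.27 for Aqp1 and 0.25 to 0.72 for Sostdc1. Over all genes 30 were called (16 higher, 14 lower). The count was 2 with no filter, 81 (18 higher, 63 lower) with a trimmed mean of M values, 52 (16 and 36) with quantile normalization, 16 without trend and 309 (127 and 182) with array weights. With FPKM it was 45 (14 and 31). With 1 library left out it ran from 0 to 70, and it was 0, 0 and 0 without WT replicate 2, S156A replicate 2 and S156A replicate 3 (1542, 2275 and 2041 genes at an unadjusted limma p under 0.05). Without WT replicate 3 and S156A replicate 1 together it was 0 (3141 at an unadjusted p under 0.05), and 1 with Y-linked genes as a covariate, both chosen after the data were seen. With the replicate block 0 genes were called (1880 at an unadjusted p under 0.05). Same-numbered libraries did not deviate together (correlations of -0.55, 0.19 and -0.41 across genes). The largest correlation was that of WT replicate 3 with S156A replicate 1 (0.65), the libraries richest in muscle transcripts. This check cannot tell whether libraries shared litters or processing, and the numbers are used here only to name libraries. The receptor gene Lepr turned from 0.21 to -0.25 without WT replicate 1. The cause of these shifts was not tested. The absence of read counts limits what can be said of Kl and Prlr, which lie below 1.2 TPM.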

Other observations

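Among markers of tissues outside the brain, given as levels only, Gng13, a G protein subunit of olfactory and cerebellar neurons, had 7.78, 3.62 and 4.66 TPM in the WT libraries, against 0.51, 0 and 0.22 TPM with S156A. The growth hormone gene Gh was listed at 0 in WT replicate 1 and stood at 1.69 and 97.1 TPM in the other WT libraries and at 310, 166 and 130 TPM in S156A. The lens crystallin gene Cryaa had at most 10.3 TPM in the WT libraries, against 36.5, 11.2 and 2.98 TPM with S156A. The nasal secretory gene Bpifa1 was at 18.8 TPM in WT replicate 3 and 31.4 TPM in S156A replicate 1 and below 0.5 TPM in the other 4 libraries.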
